A study of Mus musculus with 6 samples.

Results

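The transcript levels of 38 genes that fold, oxidize, export or degrade proteins of the endoplasmic reticulum (ER), or that sense the load of unfolded protein there, were compared between mock and p140Cap TuBo cells. The genes were taken by symbol from the deposited counts of 21960 genes. Each of the 38 symbols matched 1 gene, and all 38 passed the filter on low counts, which left 11800 genes for the test. They were divided by role into 11 chaperones and their helpers, 6 genes of oxidative folding, 11 genes of ER-associated degradation (ERAD), 5 stress sensors and transcription factors, and 5 genes of translocation into the ER and of the COPII coat that carries cargo out of it.

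Proteins that will be secreted or inserted into membranes enter the ER through the Sec61 channel and are folded there by chaperones such as BiP (Hspa5), while protein disulfide isomerases join their cysteines and are themselves reoxidized by the Ero1 oxidases. Proteins that fail to fold are recognized, returned to the cytosol and degraded, a route called ERAD. When unfolded protein accumulates, the unfolded protein response (UPR) is started by the membrane sensors IRE1 (Ern1), PERK (Eif2ak3) and ATF6: IRE1 splices the mRNA of Xbp1, PERK phosphorylates the translation factor eIF2α, and ATF6 is cleaved to release a transcription factor. Secretory epithelia, the mammary gland among them, depend on this system. The deposited counts measure RNA per gene, and show neither Xbp1 splicing, nor PERK phosphorylation, nor ATF6 cleavage.

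RNA-Seq was performed on 3 mock and 3 p140Cap libraries of TuBo cells, an epithelial line of BALB/c-MMTV-NeuT mammary tumor origin, in which the rat HER2/neu oncogene is driven by a mammary tumor virus promoter. Both groups share this origin. p140Cap cells were transduced with a p140Cap cDNA in the retroviral vector pBabe-puro, selected with puromycin, grown from single cells, and used as a pool of clones, whereas mock cells are labelled as wt controls. The labels speak of mouse cell lines and do not say whether the libraries of a group came from separate cultures, so that p-values measure the spread between these libraries, which may be technical. Total reads on genes ranged from 13770385 to 75506562, with all mock libraries deeper than the deepest p140Cap library. Srcin1, the gene of p140Cap, was higher in p140Cap cells by a log2 fold change of 7.29, in accord with the labels. Of 9 epithelial markers, 8 were above 1 CPM (reads after normalization, scaled to a library total of 1000000) in at least 1 library, and their sum was 6429 to 6967 CPM in mock and 7191 to 7455 CPM in p140Cap libraries. The markers did not move in 1 direction: Krt7 fell by 0.84, whereas 4 of the 8 tested were higher. Krt19 was near 0. Of 8 fibroblast markers, 5 were at 0 in all libraries, and their sum was 9.97 to 10.5 CPM in mock and 11.3 to 14.1 CPM in p140Cap libraries, mainly from Pdgfra and Col1a1. All 8 immune and all 5 endothelial markers were under 1 CPM in each library, and 5 of the immune markers were at 0 throughout. Of the 5 plasma cell markers in the counts, only Sdc1, which epithelial cells also express, exceeded 1 CPM, and the sum was 148 to 150.1 CPM in mock and 125 to 135 CPM in p140Cap libraries. The part of these differences in the results was not tested. In such bulk RNA, fewer cells of a kind and less RNA per cell cannot be told apart.

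The promoters of the 38 genes were examined for the ER stress element (ERSE), the sequence to which the cleaved ATF6 and XBP1 are known to bind together with NF-Y. An ERSE was searched for as CCAAT, any 9 bases, and CCACG, on both strands of RefSeq promoter windows of GRCm38.p6 that span 250 bases before to 50 bases after a start site. Of the 38 genes, 33 matched a window (Ero1l and Ero1lb under their current symbols Ero1a and Ero1b), and Hyou1, Manf, Derl1, Atf6 and Sec61a1 did not. An ERSE was found in 10 of these 33 genes (30.3%), against 37 of all 27025 genes with a window (0.137%). The 37 include these 10, and of the other 27 only 5 were among the genes tested. Hsp90b1 held 2 elements. The 11 elements are shown because this sequence links ER chaperone genes to the UPR. Each is written on the strand on which it reads as CCAAT to CCACG, with the fixed letters in capitals.
Hspa5: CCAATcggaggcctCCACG
Hsp90b1, distal: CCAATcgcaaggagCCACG
Hsp90b1, proximal: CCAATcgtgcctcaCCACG
Calr: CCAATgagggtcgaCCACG
Canx: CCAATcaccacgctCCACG
Dnajc3: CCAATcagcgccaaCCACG
Creld2: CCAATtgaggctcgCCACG
Pdia6: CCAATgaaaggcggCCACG
Ero1lb: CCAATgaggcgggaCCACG
Syvn1: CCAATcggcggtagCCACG
Derl3: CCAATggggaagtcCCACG

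The elements lay between position -212 (Hsp90b1) and position -26 (Syvn1), with the start site of the window as position 0. The element of Hspa5 is at chr2:34772025-34772043, that of Derl3 at chr10:75893242-75893260, and that of Ero1lb at chr13:12565682-12565700. A looser form that ends in CCAC was found in 14 of the 33 genes (42.4%, against 0.429% of all genes), adding Pdia3, Pdia4, Herpud1 and Derl2. It overlaps the ERSE by construction. ERSE-II, searched for as ATTGG, any 1 base and CCACG, was found in Herpud1 and Dnajb11 (6.06% against 0.0444%), and the core of the UPR element, TGACGTGG, in Sec24d alone (3.03% against 0.714%). A match is a description of the sequence and no evidence of binding in these cells.

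To show such elements in place, the bases from 20 before the first ERSE to the last base before the annotated gene are given for the 4 genes with an ERSE that had the smallest adjusted p-values, all of them called, that is, with an adjusted p below 0.05 in edgeR's test of p140Cap against mock. They read 5′ to 3′ on the strand of the gene, and the capitals mark the ERSE. In Derl3, Ero1lb and Creld2, and at the second element of Hsp90b1, the ERSE lies on the other strand and therefore appears in reverse complement.
Derl3, chr10:75893222-75893397, plus strand: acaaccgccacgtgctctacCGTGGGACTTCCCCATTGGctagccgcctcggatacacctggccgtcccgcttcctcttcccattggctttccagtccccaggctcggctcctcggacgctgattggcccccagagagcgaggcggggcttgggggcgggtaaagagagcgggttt
Ero1lb, chr13:12565662-12565817, plus strand: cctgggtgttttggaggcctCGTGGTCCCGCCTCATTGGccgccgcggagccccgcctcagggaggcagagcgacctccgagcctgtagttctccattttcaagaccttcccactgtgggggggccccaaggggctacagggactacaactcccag
Creld2, chr15:88819500-88819645, plus strand: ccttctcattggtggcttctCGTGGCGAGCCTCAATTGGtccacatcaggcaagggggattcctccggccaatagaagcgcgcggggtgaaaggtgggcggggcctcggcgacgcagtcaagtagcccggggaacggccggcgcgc
Hsp90b1, chr10:86705445-86705676, minus strand: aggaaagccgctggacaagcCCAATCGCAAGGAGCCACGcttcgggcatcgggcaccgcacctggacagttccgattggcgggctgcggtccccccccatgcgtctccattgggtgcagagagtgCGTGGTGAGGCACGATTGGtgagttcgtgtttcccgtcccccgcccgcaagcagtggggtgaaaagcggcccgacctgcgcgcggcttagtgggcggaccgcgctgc

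**Figure D1:**
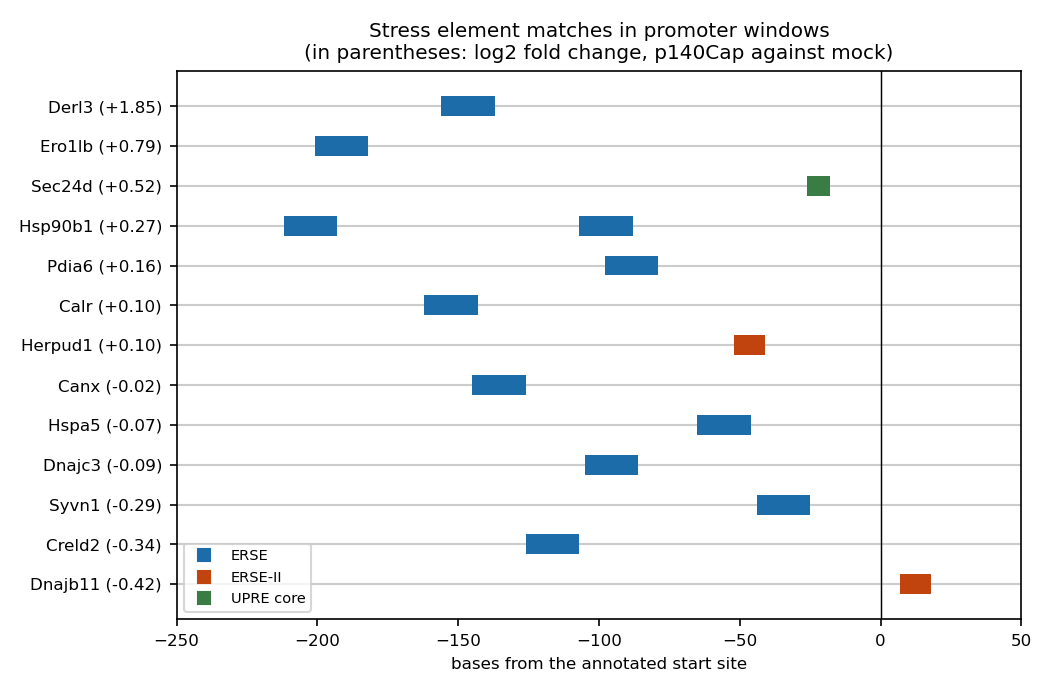
Positions of ER stress elements in the promoter windows of 13 genes. The horizontal axis gives bases from the annotated start site, each row is a gene with its log2 fold change (p140Cap against mock) in parentheses, and colored boxes are matches; ERSE-bearing genes run from Derl3 at 1.85 to Creld2 at -0.34.

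The 10 genes with an ERSE were called in both directions, as were all genes tested, of which 35.2% were higher and 35.9% lower. Of the 10, 5 were higher (Derl3, Ero1lb, Hsp90b1, Pdia6 and Calr), 2 were lower (Creld2 and Syvn1), and 3 (Hspa5, Canx and Dnajc3) were not called. Their median log2 fold change was 0.04, and that of the 23 genes whose window held no ERSE was 0.09, with 10 higher and 6 lower. Both groups were called at about the rate of all genes tested (71.1%). The plot of element positions sets the elements beside the changes.

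Over all 38 genes, p140Cap and mock cells differed in both directions, and the shift was small for most genes. In edgeR's quasi-likelihood test, 27 of the 38 genes passed an adjusted p of 0.05 (71.1%), the same share as among all genes tested (71.1%). Among them 12 genes were lower in p140Cap cells and 15 higher, where 35.9% of all genes tested were lower and 35.2% higher. The median log2 fold change was 0.01 (quartiles -0.22 and 0.30), against -0.00 over all genes tested, and the median absolute change was 0.24 against 0.32. With a further requirement of at least 0.5 on the log2 scale, 8 genes were higher and 1, Atf6b, was lower, where this rule called 30.8% of all genes tested, 15.3% as higher and 15.5% as lower. Xbp1 (0.50) and Sec24d (0.52) lay just above this limit, and across the alternative settings 6 to 8 genes were higher under it. For 28 of the 38 genes the groups did not overlap in CPM, against 73.4% of all genes tested. With 3 libraries against 3, an exact permutation test of a single gene cannot give a p below 0.1.

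**Figure D2:**
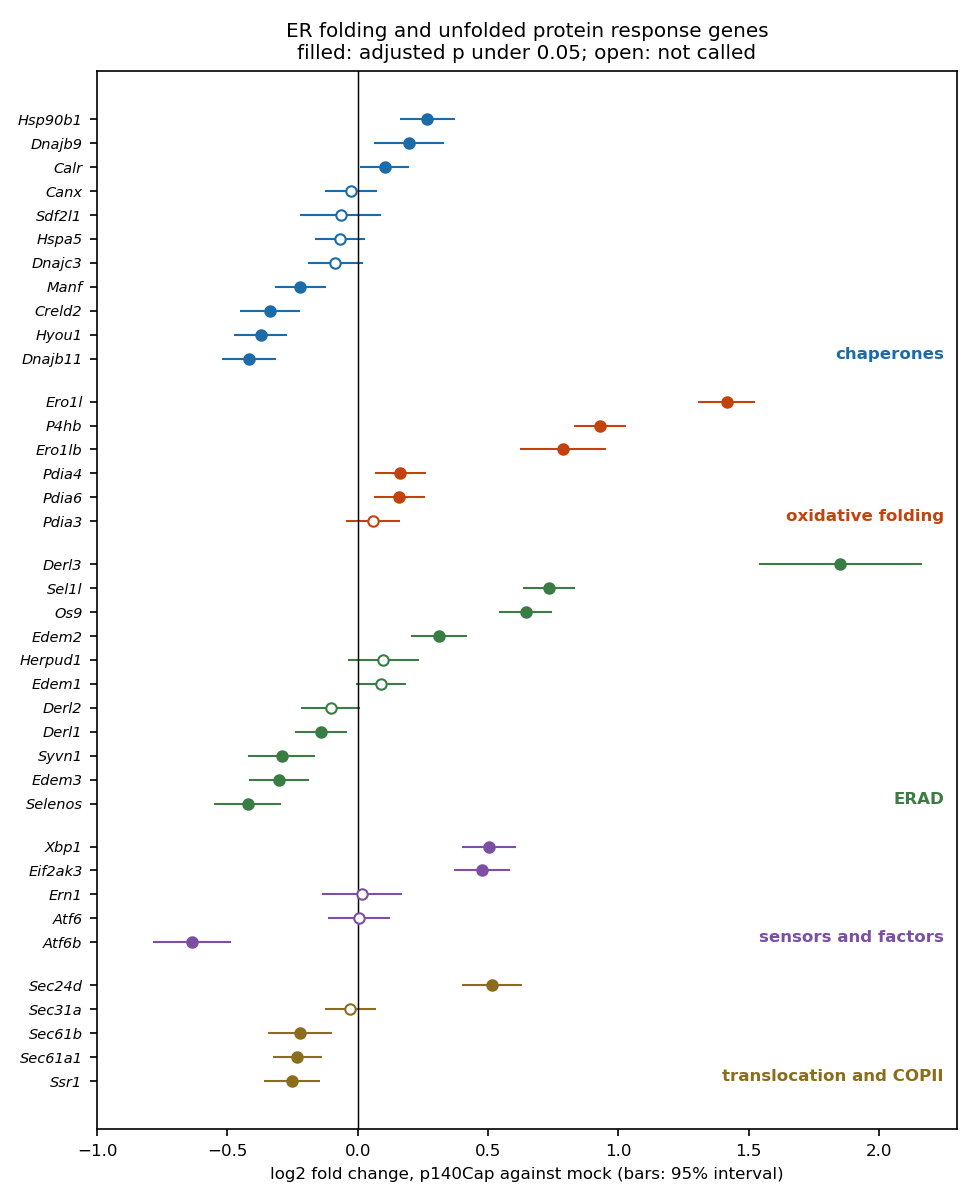
Log2 fold change (p140Cap against mock, 3 libraries each) of the 38 genes by role, with 95% intervals; filled points were called by edgeR's quasi-likelihood test and open points were not. All 6 genes of oxidative folding lie to the right of 0, from 0.06 to 1.42, whereas the chaperones lie within -0.42 and 0.27.

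Together, the 38 genes took 11398 ± 214 CPM (SD, n = 3) in mock and 13508 ± 201 CPM (SD, n = 3) in p140Cap libraries, that is, 1.14% and 1.35% of normalized reads. The sum was 11251, 11644 and 11299 CPM in the mock libraries and 13740, 13387 and 13397 CPM in the p140Cap libraries, without overlap. Oxidative folding genes accounted for most of the difference, with a sum of 3182 ± 52.8 CPM in mock and 4803 ± 90.6 CPM in p140Cap libraries (ratio 1.51). The ratio was 1.25 for ERAD genes, 1.16 for sensors and factors, 1.04 for chaperones, whose sums overlapped between groups, and 0.904 for translocation and COPII genes.

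Of the 6 oxidative folding genes, 5 were higher and 1, Pdia3, was not called, where 35.2% of all genes tested were higher. Their median log2 fold change was 0.48, and 3 of the 5 rose by at least 0.5, a rise called for 15.3% of all genes tested. Ero1l (ENSMUSG00000021831, GRCm38.p6 chromosome 14, 45283087 to 45318572), the oxidase that passes electrons from protein disulfide isomerase to oxygen, was at 443, 433 and 408 CPM in the mock libraries and at 1200.5, 1100 and 1124 CPM in the p140Cap libraries. The groups were far apart, with 2.67-fold more in p140Cap cells (log2 fold change 1.42, SE 0.05, adjusted p = 1.37e-12). It was in position 42 of all genes tested when ordered by p.

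P4hb (chromosome 11, 120560298 to 120573253), the founding protein disulfide isomerase and the main partner of Ero1, was at 832, 819 and 839 CPM in mock and at 1583, 1639 and 1515 CPM in p140Cap libraries. Each p140Cap library was well above each mock library (log2 fold change 0.93, SE 0.05, adjusted p = 4.97e-11). Ero1lb (chromosome 13, 12565818 to 12609533), the second Ero1 oxidase, known for its role in insulin-producing cells, was much less abundant. It was at 11.6, 11.6 and 12.3 CPM in mock and at 20.3, 22.2 and 18.7 CPM in p140Cap libraries, again without overlap (log2 fold change 0.79, SE 0.08, adjusted p = 1.23e-07).

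Pdia3, Pdia4 and Pdia6 differed less, by under the median absolute change of all genes tested (0.32). Pdia4 and Pdia6 were higher in p140Cap cells by a log2 fold change of 0.16 each (adjusted p = 0.0047 and 0.00545). Pdia3, which works on glycoproteins bound by calnexin and calreticulin, had a log2 fold change of 0.06 with a 95% interval of -0.05 to 0.16. Rises of at least 0.5 were thus seen for both Ero1 oxidases and P4hb, and not for Pdia3, Pdia4 or Pdia6.

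**Figure D3:**
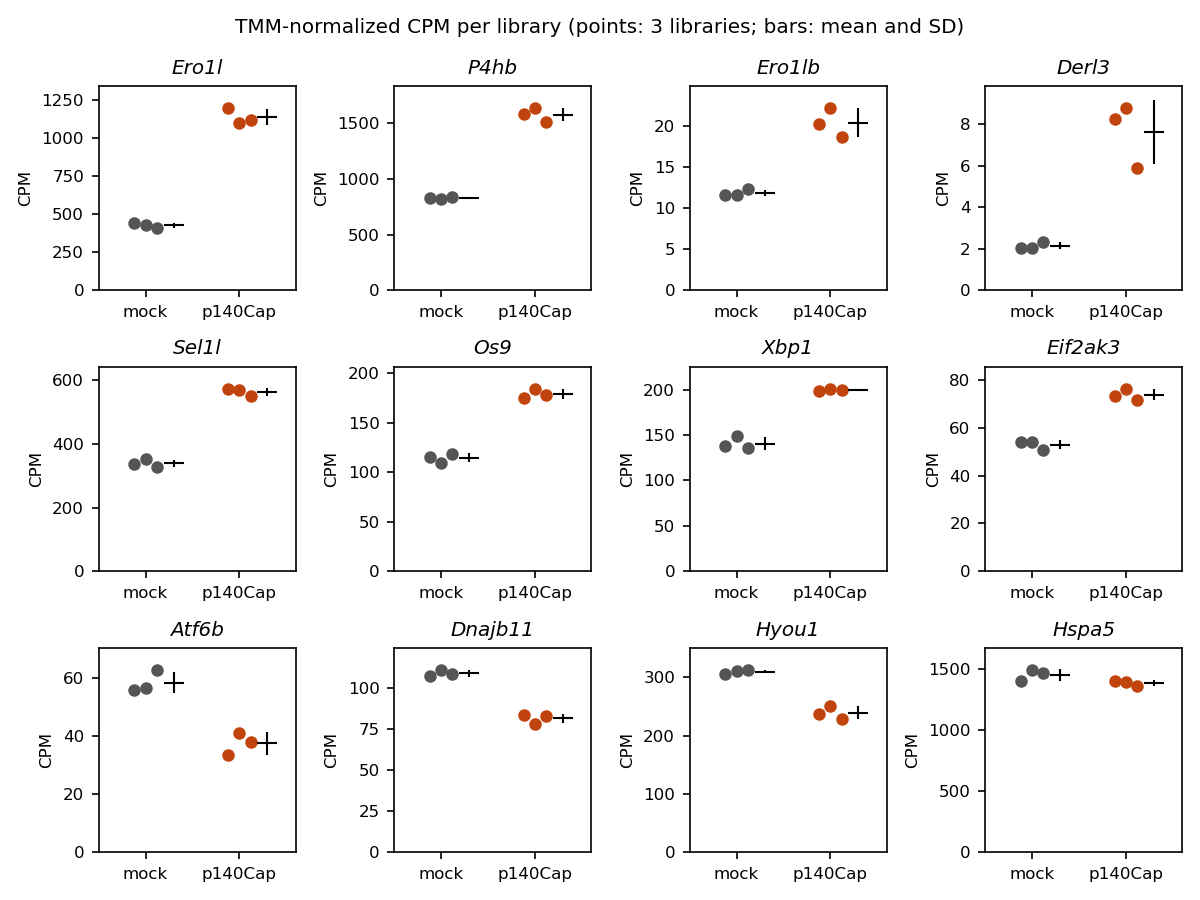
CPM in each of the 3 mock (gray) and 3 p140Cap (orange) libraries for 12 of the genes, with the mean and SD beside the points, on linear axes from 0. The groups are apart in all panels but that of Hspa5, where mock libraries span 1399 to 1492 CPM and p140Cap libraries 1358 to 1404 CPM.

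Of the 11 chaperones and helpers, 4 were lower and 3 higher in p140Cap cells, near the shares of all genes tested (35.9% lower and 35.2% higher), their median log2 fold change was -0.07, and no change reached 0.5 in either direction. BiP (Hspa5), the HSP70 of the ER and the standard readout of the UPR, was at 1399, 1492 and 1465 CPM in mock and at 1404, 1393 and 1358 CPM in p140Cap libraries. The groups overlapped, and the log2 fold change of -0.07 had a 95% interval of -0.17 to 0.03. A rise of Hspa5 above 0.03 on the log2 scale is outside this interval. The interval covers only the spread between these libraries, which may be technical.

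Genes of the helpers of BiP were among those that fell. Dnajb11 (chromosome 16, 22857845 to 22879634), a J-domain cochaperone that hands unfolded clients to BiP, was at 107, 111 and 108 CPM in mock and at 83.2, 78.2 and 82.9 CPM in p140Cap libraries, and fell by 0.42 (log2 scale, SE 0.05, adjusted p = 8.38e-07). Hyou1 (chromosome 9, 44379490 to 44392369), a large HSP70-like protein that exchanges the nucleotide of BiP, was at 306, 310.5 and 312 CPM in mock and at 237, 251 and 229 CPM in p140Cap libraries, and fell by 0.37 (SE 0.05, adjusted p = 2.86e-06). For both genes all mock libraries were above all p140Cap libraries.

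Creld2 (chromosome 15, 88819646 to 88826681), a secreted ER stress protein with disulfide isomerase activity, was at 53.5, 52.5 and 57.3 CPM in mock and at 43.8, 42.5 and 42.9 CPM in p140Cap libraries, and fell by 0.34 (SE 0.05, adjusted p = 3.78e-05). Manf, a small ER protein that binds BiP, fell by 0.22 (adjusted p = 0.00047), with exons that other genes overlap on both strands. In contrast, Hsp90b1, the HSP90 of the ER, was higher by a log2 fold change of 0.27 (adjusted p = 0.000159), and Dnajb9, a J-domain protein that restrains IRE1, by 0.20 (adjusted p = 0.0103). The lectin chaperone calreticulin (Calr) passed narrowly, at a log2 fold change of 0.10 and an adjusted p of 0.0443, a call that 9 of 13 alternative settings did not give. Its membrane-bound relative calnexin (Canx) had a change of -0.02 (95% interval -0.12 to 0.07), Dnajc3, the J-domain inhibitor of PERK, of -0.09 (-0.19 to 0.02), and Sdf2l1, a partner of Dnajb11, of -0.06 (-0.22 to 0.09), none of which was called.

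Of the 11 ERAD genes, 4 were lower and 4 higher in p140Cap libraries, close to the shares of all genes tested (35.9% and 35.2%), at a median log2 fold change of 0.09, and without overlap between groups for 9, where 73.4% of all genes tested did not overlap. By at least 0.5, 3 genes were higher, where this rule called 15.3% of all genes tested as higher. Derl3 (ENSMUSG00000009092, chromosome 10, 75893398 to 75895941), a derlin of secretory cells that takes part in moving substrates out of the ER, had the highest log2 fold change of the 38 genes. It was also the least abundant, with 157, 81 and 78 reads in mock and 125, 129 and 80 reads in p140Cap libraries. This corresponds to 2.05, 2.04 and 2.34 CPM in mock and 8.24, 8.79 and 5.88 CPM in p140Cap libraries, that is, 3.61-fold more in p140Cap cells with no overlap (log2 fold change 1.85, SE 0.15, adjusted p = 1.02e-08). The p140Cap libraries spread more for Derl3 than the mock libraries, with SDs of 1.55 and 0.172 CPM.

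Sel1l and Os9 belong to the membrane complex that receives glycoproteins marked for destruction. Sel1l (chromosome 12, 91806043 to 91849157), the scaffold of the ubiquitin ligase Hrd1, was at 338, 351 and 328 CPM in mock and at 572, 570.3 and 549.5 CPM in p140Cap libraries (log2 fold change 0.74, SE 0.05, adjusted p = 7.73e-10). Os9 (chromosome 10, 127094259 to 127121160), a lectin that delivers substrates to Sel1l, was at 115, 109.9 and 119 CPM in mock and at 175, 184 and 179 CPM in p140Cap libraries (log2 fold change 0.64, SE 0.05, adjusted p = 4.47e-09). For each gene, the lowest p140Cap library was above the highest mock library. Hrd1 itself (Syvn1), which ubiquitinates the substrates, went the opposite way and fell by 0.29 (adjusted p = 0.000441). Syvn1 lies on chromosome 19, where the median log2 fold change of the 424 genes tested was -0.34, and Mrpl49 overlaps its exons on the other strand.

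The mannosidase-like proteins that mark glycoproteins for ERAD also diverged. Edem2 was higher by a log2 fold change of 0.31 (adjusted p = 3.46e-05), Edem3 fell by 0.30 (adjusted p = 0.000115), and Edem1 was not called at 0.09 (95% interval -0.01 to 0.19), though its libraries did not overlap between groups. Selenos, a selenoprotein that links derlins to the cytosolic ATPase p97, fell by 0.42 (adjusted p = 9.62e-06), and Derl1 fell by 0.14 (adjusted p = 0.0131). Neither Derl2, with a change of -0.10 (-0.22 to 0.01), nor the stress-induced Herpud1, with 0.10 (-0.04 to 0.23), was called. The Derl family thus held a gene that rose, a gene that fell and a gene that was not called.

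Among the 5 sensors and factors, Xbp1 and Eif2ak3 were higher, Atf6b was lower, and Atf6 and Ern1 were not called. Of all genes tested, 35.2% were higher and 35.9% lower. Xbp1 (chromosome 11, 5520641 to 5525993), whose spliced form encodes an activator of chaperone and ERAD genes, was at 138, 149 and 135 CPM in mock and at 198, 201 and 199 CPM in p140Cap libraries. The p140Cap libraries were close together and above all mock libraries (log2 fold change 0.50, SE 0.05, adjusted p = 1.03e-07). Ccdc117 overlaps the exons of Xbp1 on the other strand. Eif2ak3 (chromosome 6, 70844484 to 70905241), which encodes PERK, was at 54.0, 54.0 and 50.6 CPM in mock and at 73.2, 76.2 and 71.7 CPM in p140Cap libraries, without overlap (log2 fold change 0.48, SE 0.05, adjusted p = 3.61e-07).

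Atf6b (chromosome 17, 34647146 to 34655074), the relative of Atf6 with weaker transcriptional activity, was at 55.9, 56.4 and 62.6 CPM in mock and at 33.3, 41.1 and 38.05 CPM in p140Cap libraries. It fell by 0.64 (SE 0.07, adjusted p = 5.58e-07), and no p140Cap library reached the lowest mock library. Atf6 (chromosome 1, 170704457 to 170868585) was at 81.9, 83.0 and 73.2 CPM in mock and at 81.3, 77.4 and 80.4 CPM in p140Cap libraries. These ranges overlapped, with a log2 fold change of 0.00 (95% interval -0.11 to 0.12). Ern1 (chromosome 11, 106397620 to 106487796), which encodes IRE1, was at 42.2, 41.3 and 37.7 CPM in mock and at 36.7, 46.0 and 40.3 CPM in p140Cap libraries, also overlapping (0.02, 95% interval -0.14 to 0.17).

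Of the 5 genes of translocation and of COPII vesicles, 3 fell and 1 rose, where 35.9% of all genes tested were lower, with a median log2 fold change of -0.22. Sec24d (chromosome 3, 123264801 to 123365641), a cargo-selecting COPII subunit, was at 52.7, 53.0 and 49.5 CPM in mock and at 72.7, 78.6 and 71.0 CPM in p140Cap libraries (log2 fold change 0.52, SE 0.05, adjusted p = 2.76e-07). Mettl14 overlaps its exons on the other strand. Sec31a, of the outer COPII coat, had a change of -0.03 (95% interval -0.13 to 0.07).

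The 3 translocation genes of the set, Sec61a1, Ssr1 and Sec61b, were lower in p140Cap cells. Sec61a1 (chromosome 6, 88503607 to 88518800), the pore of the translocation channel, was at 269, 272 and 274 CPM in mock and at 227, 237 and 231 CPM in p140Cap libraries and fell by 0.23 (SE 0.04, adjusted p = 0.000218). Ssr1 (chromosome 13, 37971401 to 37994208), of the translocon-associated complex, was at 311, 329.9 and 295 CPM in mock and at 267, 259 and 259.9 CPM in p140Cap libraries and fell by 0.25 (SE 0.05, adjusted p = 0.000282). The groups overlapped for neither, and Sec61b, the small subunit of the channel, fell by 0.22 (adjusted p = 0.0026).

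Levels were compared between genes as CPM per kb of merged exons. In mock libraries the most abundant transcripts per length were those of Hsp90b1 (318), Hspa5 (261), Calr (260.0), P4hb (223) and Pdia3 (212), and the least abundant those of Derl3 (1.06) and Ero1lb (1.57). In p140Cap libraries P4hb, at 425, was above Hsp90b1, at 383, and Ero1l was at 214, after 80.3 in mock libraries. Pdia3, at 220 in p140Cap libraries, was then close to Ero1l. The largest log2 fold change thus belonged to the least abundant gene, whereas the largest difference in level among ERAD genes was that of Sel1l, from 37.4 to 62.2. Merged exons overstate the length of genes with long minor isoforms, such as Manf and Ssr1, and so understate their level.

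**Figure D4:**
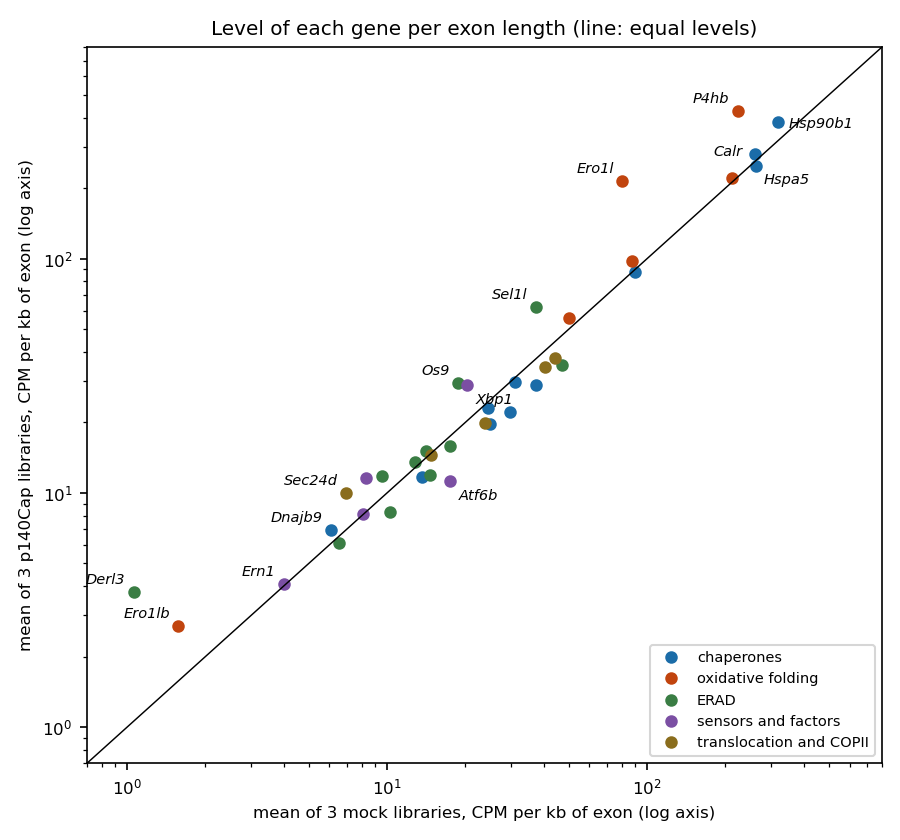
Mean level of each of the 38 genes in p140Cap against mock libraries (n = 3 each), in CPM per kb of merged exons on log axes, with the line of equal levels. Most genes lie near the line, and Derl3 (1.06 to 3.77), Ero1l (80.3 to 214), Ero1lb (1.57 to 2.70) and P4hb (223 to 425) stand above it.

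Further genes of ER protein handling and of the UPR, including nuclear and cytosolic members of its PERK and IRE1 branches, were counted in lists by role. Of 124 such genes in the counts, 116 were tested. Of these, 36 were lower and 36 higher (62.1% called, against 71.1% of all genes tested), with a median log2 fold change of -0.03. The counts of the single lists stand against 35.9% lower and 35.2% higher among all genes tested. Other folding enzymes (18 tested) had 6 lower and 6 higher genes and a median of -0.02. Qsox1, an oxidase of the secretory pathway that forms disulfides without the aid of Ero1, fell by 0.97. The isomerase Pdia5 fell by 0.88, and the prolyl isomerase Fkbp7 was higher by 0.69. Both were scarce: Pdia5 had a mean of 3.22 CPM in mock and 1.74 CPM in p140Cap libraries, and Fkbp7 of 2.03 and 3.29 CPM. Qsox1 and Pdia5 thus went the opposite way to Ero1l and P4hb.

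Other ER cochaperones (12 tested) had 6 higher genes and 1 lower gene, with a median of 0.12. Sil1, a nucleotide exchange factor of BiP, was higher by 0.79, while Hspa13, an HSP70-like ATPase, fell by 0.46. Kdelr3, a receptor that returns escaped chaperones to the ER, was higher by 0.68. It was scarce, at a mean of 3.85 CPM in mock and 6.17 CPM in p140Cap libraries. Hyou1 and Sil1, both exchange factors of BiP, therefore went in opposite directions. Glycoprotein quality control genes (14 tested) had 5 lower and 4 higher genes and a median of -0.04. Uggt2, a sensor of misfolded glycoproteins, was higher by 1.20, but its mean was only 1.52 CPM in mock and 3.42 CPM in p140Cap libraries. Uggt1, of the same list and at 212 CPM in mock libraries, fell by 0.12 (adjusted p = 0.0475). Mcfd2, of a cargo receptor, was higher by 0.37, and Rpn1, of the oligosaccharyltransferase, fell by 0.44.

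Other ERAD genes (15 tested) had 9 lower and 4 higher genes and a median of -0.20. The ubiquitin-conjugating enzyme Ube2g2 fell by 0.57 the p97 cofactor Nploc4 fell by 0.56, and the ubiquitin ligase Rnf5 was higher by 0.46. Other translocation and COPII genes (30 tested) had 8 lower and 5 higher genes and a median of -0.06. Srprb, of the signal recognition particle receptor, fell by 0.46, the COPII subunit Sec23a was higher by 0.45, and Sec61a2, a second form of the channel pore, by 0.44.

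The branches of the UPR beyond the sensors did not move in 1 direction either. Of the ATF6-like factors and site proteases (5 tested), 4 were higher and 1 was lower, with a median of 0.30. Creb3l4 was higher by 0.63, Mbtps1, the protease that cuts ATF6 in the Golgi, by 0.37, and Creb3l2 by 0.30. Creb3l4 was scarce, at a mean of 1.77 CPM in mock and 2.71 CPM in p140Cap libraries. IRE1 partners and targets of its RNase (8 tested) had 2 lower and 4 higher genes and a median of 0.05. Bloc1s1, a substrate of the IRE1 RNase, fell by 0.29, with mock libraries between 25.4 and 32.8 CPM. Hgsnat, also listed as a target of this RNase, went the other way and was higher by 0.23 (adjusted p = 0.000594). Tmbim6 and Bfar, genes of membrane proteins that restrain cell death, were higher by 0.29 and 0.24. The PERK arm (14 tested) had 4 lower and 3 higher genes and a median of -0.04.

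Within the PERK arm, genes went both ways and 7 of 14 were not called (50% called, against 71.1% of all genes tested). Atf4, whose translation rises when eIF2α is phosphorylated, was at 281, 318 and 301 CPM in mock and at 170.2, 164 and 184 CPM in p140Cap libraries, and fell by 0.80 (SE 0.06, adjusted p = 2.71e-09). Ddit3, which encodes the stress factor CHOP, was at 10.6, 10.8 and 10.6 CPM in mock and at 19.8, 18.8 and 17.3 CPM in p140Cap libraries (log2 fold change 0.81, SE 0.08, adjusted p = 6.6e-08). Nupr1, a stress-inducible chromatin protein, was higher by 0.80 (adjusted p = 4.23e-09). No value of Atf4, Ddit3 or Nupr1 overlapped between the groups. Chac1, a glutathione-degrading enzyme gene that ATF4 and CHOP activate, fell by 0.76 (adjusted p = 1.67e-06). Eif2s1, which encodes eIF2α, fell by 0.72, Ppp1r15b, of a phosphatase that reverses its phosphorylation, fell by 0.27, and the receptor gene Vldlr was higher by 0.25. The genes not called, with changes of -0.10 to 0.16, were Trib3, Atf3, Sesn2, Stc2, Ppp1r15a, Cebpb and Cebpg, most of them known to be induced by ATF4.

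Heat shock genes outside the ER were listed as a second folding system, and most were lower in p140Cap cells. The list is largely cytosolic, but also holds the mitochondrial chaperonins Hspd1 and Hspe1 and the transcription factor Hsf1, all 3 of them lower. Of 19 tested, 16 were lower and 3 (Dnajb1, Bag3 and Cryab) were not called, 11 of the lower genes fell by at least 0.5, where 35.9% of all genes tested were lower and 15.5% lower by at least 0.5, and the median was -0.60. Hsph1, an HSP110 exchange factor, was at 78.3, 84.7 and 76.9 CPM in mock and at 18.6, 19.9 and 19.5 CPM in p140Cap libraries and fell by 2.05 (SE 0.06, adjusted p = 2.32e-13). Hspd1 fell by 1.10 (adjusted p = 1.1e-10). Hspb1, a small heat shock protein, had 144, 75 and 69 reads in mock and 2, 1 and 0 reads in p140Cap libraries. The 11 ER chaperones, by comparison, had a median of -0.07 and a range of -0.42 to 0.27. The difference between the lists was not tested.

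**Figure D5:**
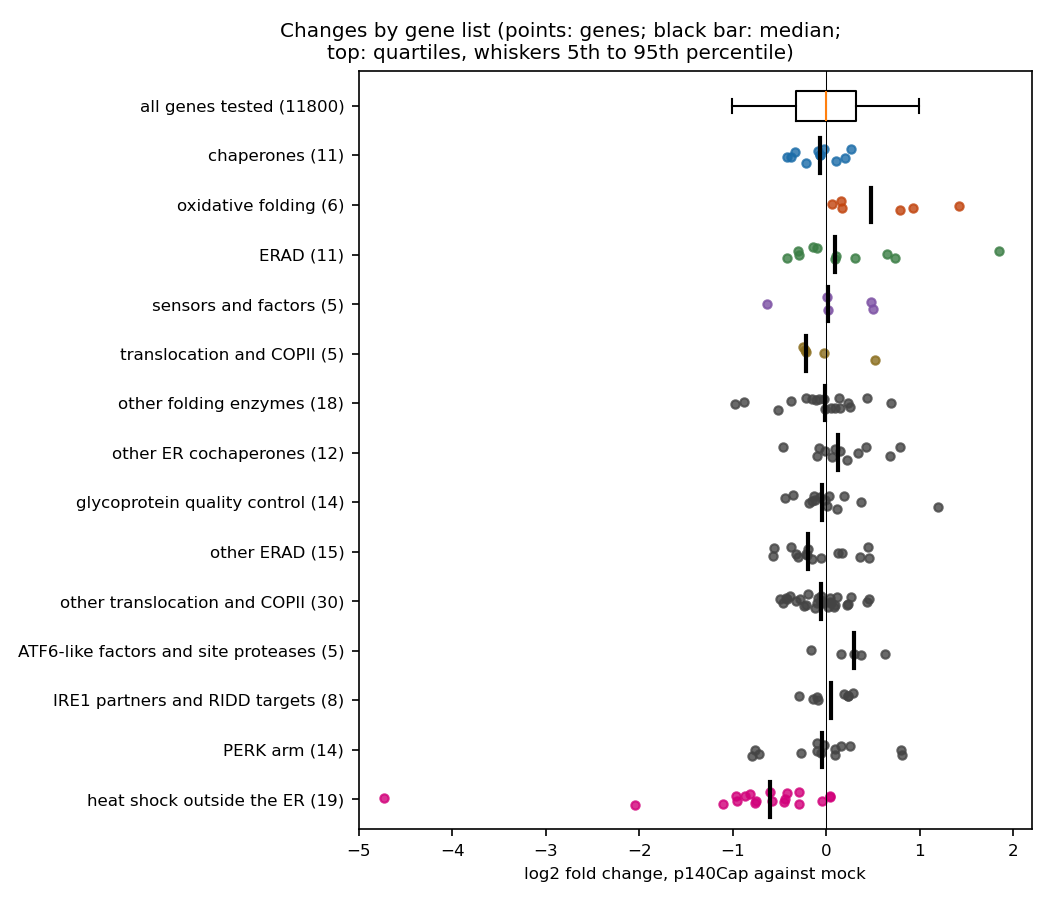
Log2 fold change (p140Cap against mock) of each gene by list, with the number tested in parentheses and the median as a black bar; the box at the top gives the quartiles of all 11800 genes tested, with whiskers from the 5th to the 95th percentile. Medians run from 0.48 for oxidative folding to -0.60 for heat shock genes outside the ER.

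Exons of 22 of the 38 genes are overlapped by an annotated gene on the other strand, 8 of them by a protein-coding gene, and those of Hsp90b1, Pdia4 and Manf by a gene on the same strand. The libraries were stranded, but no source used here states the strand setting of the counting, so the values of these genes may hold reads of their neighbors. Ero1lb, Derl3, Sel1l and Os9 have no such overlap. Ero1l and P4hb are each overlapped on the other strand by a long noncoding RNA gene. On that strand Hspa5 is overlapped by the protein-coding gene Rabepk, Pdia6 by Atp6v1c2, and Pdia3 by Catsper2, Ell3 and Serinc4.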

How the data were processed

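RNA-Seq was performed on 3 mock and 3 p140Cap libraries of TuBo cells. Per the paper's methods, stranded TruSeq libraries were sequenced on an Illumina NextSeq and processed with docker4seq. The authors deposited counts, that is, whole numbers of reads per gene and library, without normalization. The submitters' processing notes name STAR 2.5, RSEM 0.1.1 and mm10 with no role, the paper names GRCm39, and whether the counts are rounded RSEM estimates is not stated. No source used here states the strand setting of the counting.

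Counts were analysed in R 4.3.3 with edgeR 4.0.16: TMM factors, filterByExpr by group, and the quasi-likelihood test with condition as the sole term on 11800 genes, with Benjamini-Hochberg adjustment and a threshold of 0.05. Adjusted p-values are from this test except where the text names an alternative. SE was obtained by dividing the size of the log2 change by the root of the F statistic, and intervals are 95%. The common coefficient of biological variation was 4.57%, which includes spread between libraries only. No libraries were copies: over genes with at least 20 reads, chi-square values of same-group pairs averaged 1.75 to 10.7. Scripts were tested on simulated data.

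The members and lists were chosen with earlier results of these data known. All 38 genes are accounted for. Values per library are given for all sensors, for the up to 3 called genes with the smallest adjusted p in each other subgroup, and for Hspa5, Atf4, Ddit3, Hsph1 and Hspb1, added after values were seen. In further lists, up to 3 called genes with the largest absolute change are named. Uncalled heat shock genes, the rest of the PERK arm, Uggt1 and Hgsnat were named after values were seen. Promoters are from RefSeq (GRCm38.p6, the assembly of mm10), and exon lengths and overlaps from GENCODE on GRCm39. The alternatives were RLE factors, limma-voom (limma 3.58.1), DESeq2 1.42.0, a minimum of 10 reads in every library, no count filter, the replicate number as a block, thinning to the smallest total, and leaving out each library. C-terminal ER retention sequences of the proteins were not analysed here.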

Additional observations from a re-analysis of the deposited data

How the results depend on the processing

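Call and direction were unchanged for 30 of the 38 genes in all 13 alternatives, which cover tests, scalings, filters, depth and left-out libraries. The exceptions were small changes. Calr lost its call in 9 alternatives (adjusted p = 0.0528 to 0.23 across edgeR fits) and Dnajb9 without p140Cap replicate 3 (adjusted p = 0.0555), which left 1 to 3 chaperones higher when 1 library was left out. Dnajc3 and Herpud1 gained a call in 1 alternative each and Derl2 in 2. Genes that were never called changed sign: Canx to 0.001 with thinned libraries, Atf6 to -0.003 with DESeq2, -0.026 without a filter and -0.002 with at least 10 reads, and Ern1 to -0.013 without a filter. With 1 library left out, Canx ranged from -0.045 to 0.001, Atf6 from -0.054 to 0.033 and Ern1 from -0.077 to 0.092. The median of the 38 genes was -0.020 without a filter, which moved the median of all genes to -0.059, and -0.019 to 0.031 with 1 library left out (-0.019 without mock replicate 3). Without a filter, the median was -0.098 for chaperones and 0.058 for ERAD genes. The ERAD median was 0.045 with thinned libraries and 0.026 to 0.106 with 1 library left out (0.026 without mock replicate 1), and the translocation and COPII median -0.246 to -0.173. Among ATF6-like genes, 0 to 1 were called lower (0 without mock replicate 2 or p140Cap replicate 2). Genes higher by at least 0.5 numbered 6 without a filter and 6 to 8 with 1 library left out (6 without mock replicate 3 or p140Cap replicate 2), and 7 with DESeq2 and with at least 10 reads. For none of these was the cause tested.

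The replicate numbers are shared between groups. Same-numbered libraries did not deviate together (correlations -0.03, -0.106 and -0.057), and differently numbered libraries gave -0.028 to 0.08. With 3 libraries per group, these correlations cannot decide whether the numbers mark pairs. With the replicate number as a block, 12 genes were lower and 14 higher, and only Calr lost its call (adjusted p = 0.0863). The mock libraries are deeper, which limits precision in p140Cap cells for genes with few reads there. Derl3 had few reads in both groups (157, 81 and 78 in mock, 125, 129 and 80 in p140Cap libraries). Its log2 fold change was 1.72 with thinned libraries.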
